A study of Homo sapiens with 22 samples.

Results

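The actin contractile genes studied here are 10 genes chosen by symbol: the tropomyosins TPM1, TPM2 and TPM4, the thin filament regulators CALD1, CNN1 and TAGLN, the smooth muscle actin ACTA2, the myosin light chain MYL9, and the crosslinkers ACTN1 and FLNA. All 10 were found in the gene tables of the 3 single-cell experiments, which list 33538 genes for the first and 36601 genes for the other 2. Their levels were read in 3 melanoma experiments that counted unique molecular identifiers (UMIs, one per captured transcript) at the 3′ end of transcripts. The first held untreated WM989 cells, a BRAF V600E melanoma line grown as a clone, in 8 wells of the microfluidic chip that fall into the replicates r1 and r2. Within a replicate these wells came from a mixed culture and from a culture sorted for EGFR and NGFR, each loaded into a pair of wells, and the labels do not say which well held which. The second held untreated cells of another melanoma clone, WM983B, in 1 library. The third held WM989 cells in 8 libraries: untreated Control, TGFB1 (the recombinant cytokine), PI3Ki (the PI3K inhibitor GDC-0941) and TGFBRi (the TGF-beta receptor inhibitor LY2109761), each with the replicates r1 and r2. Cells of a replicate were grown in one well and split over 4 plates before treatment, so the libraries of a replicate share their cells' origin. The sample labels also call these libraries Mix and Primed, and which of these is r1 was not settled. A further experiment mapped open chromatin by ATAC-seq in WM989 cells sorted as EGFR/NGFR-high, EGFR-high, NGFR-high or Mix, with 3 libraries each. The study's methods list a sort negative for both markers for ATAC-seq and no mixed one there, and whether Mix is that sort was not settled.

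Tropomyosins lie along the groove of actin filaments and set which other proteins can bind there. Caldesmon (CALD1), calponin (CNN1) and transgelin (TAGLN) bind the same filaments and tune how myosin pulls on them, while alpha-actinin (ACTN1) and filamin A (FLNA) tie filaments into bundles and networks. In many cell types this gene group is driven by serum response factor (SRF) with its actin-sensing partners MRTFA and MRTFB, and by TGF-beta, and it is best known from smooth muscle and from myofibroblasts.

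The binding site of SRF is the CArG box, a CC and a GG with 6 bases between them that are A or T. Promoter windows of 250 bases before to 50 bases after a start were taken from a set of RefSeq starts on GRCh38.p14. The set is not complete. In it 8 of the 10 members had 18 windows, and it held no entry for TAGLN or MYL9, although both have an annotated start that is used below. A CArG box lay in 3 of these windows, at 1 start each of ACTN1, TPM4 and FLNA, and in 1.29% of 35116 windows of all genes. Sites that depart from this pattern by a base were not searched for, so a window without a match is not shown to lack an SRF site. The 3 boxes are shown in capitals, with 10 bases on each side, because they are the exact matches to the pattern in the members' windows.
ACTN1: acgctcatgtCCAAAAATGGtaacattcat
TPM4: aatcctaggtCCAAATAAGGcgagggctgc
FLNA: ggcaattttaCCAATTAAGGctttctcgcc
The ACTN1 sequence is chr14:68977718-68977747 on the minus strand, in an intron of ACTN1, and its box begins 171 bases before the start at 68977566. The TPM4 sequence is chr19:16067355-16067384 on the plus strand, in an intron of TPM4, 173 bases before the start at 16067538. The FLNA sequence is chrX:154374709-154374738 on the minus strand, 94 bases before the start at 154374634, where an exon of the unnamed gene ENSG00000285018 lies on the plus strand. These are matches of letters, searched on both strands, and binding was not measured. Of the other motifs searched, CATTCC (the core read by TEAD factors) occurred in 4 windows of 3 members and in 14.03% of all windows. CAGAC (read by SMAD factors) occurred in 11 windows of 5 members and in 45.3% of all. TGANTCA, a looser pattern than the AP-1 site TGA(C or G)TCA, occurred in 1 member window, upstream of CALD1, and in 7.71% of all. The match there is TGATTCA, whose middle T departs from that site. No match overlapped one of another motif.

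The first experiment held 12531 cells, of which the authors called 2843 primed and 9688 drug-susceptible, WM983B 1449 cells (731 and 718) and the treatment experiment 40021 cells (4077 and 35944). Libraries held from 35882876 to 177318308 UMIs in the first experiment, 102738398 in WM983B and from 70239657 to 122420544 in the treatment experiment, and levels are given as CPM, the UMIs of a gene per 1000000 UMIs. In the first experiment 38 cells and in the treatment experiment 388 cells carried a cell barcode that also occurs in another library of that experiment, in WM983B 0. In every experiment all 4 markers of the primed state (EGFR, AXL, NGFR, NT5E) were higher and 0 of 6 melanocyte markers were higher in the cells called primed. In WM989 the authors named the states by marker genes of this kind, so this describes the labels and is no check of them. Summed over 6 genes that mark smooth muscle (MYH11, DES, LMOD1, MYOCD, ACTG2, SYNPO2), the level was at most 2.34 CPM in either state of any experiment, and MYOCD, the master coactivator of smooth muscle genes, was at 0 UMIs in all 3. The 6 fibroblast markers (led by PDGFRA) summed to 117 CPM among primed against 36.2 CPM among drug-susceptible cells of the first experiment, with 5 of 6 higher. In the treatment experiment they summed to 121 and 29.5 CPM, and in WM983B to 95.8 and 108.5 CPM, where 4 of 6 were higher in primed cells and LUM held 83.3 of the 95.8 CPM. The 3 endothelial markers, led in primed cells by PECAM1, summed to 25.3 CPM among primed and 0.498 CPM among drug-susceptible cells of the first experiment, to 10.35 and 0.442 CPM in the treatment experiment, where CDH5 was at 0 in primed cells, and to 0.409 and 0.26 CPM in WM983B. The 3 epithelial markers, led by KRT18, had the higher sum in primed cells in all 3 experiments (150.3 against 82.1, 194.5 against 112 and 148 against 93.8 CPM). The 3 leukocyte markers were below 1 CPM in both WM989 experiments and at 21.7 and 11.9 CPM in WM983B, led by LYZ. The part of other cell types in the results was not tested.

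In untreated WM989 the abundant members were all higher in the cells called primed. The UMIs of all cells in a state were added up before scaling. From drug-susceptible to primed cells, TPM1 went from 32.7 to 129.6 CPM, TPM4 from 123 to 454 CPM, FLNA from 139 to 429 CPM, ACTN1 from 181 to 375 CPM and CALD1 from 555 to 1083 CPM. The ratios were 3.96, 3.70, 3.09, 2.07 and 1.95, and 5 of the 5 members with at least 10 CPM in a state exceeded 1.5, against 18.4% of the 8639 genes at that level. Pooling mixes wells, which differed in their share of primed cells. The medians of the ratios within wells were 3.19, 3.74, 3.05, 1.90 and 1.55 in the same order. For CALD1 the pooled ratio exceeded that of each well (1.47 to 1.89). The authors called the states by clustering the same counts, so these ratios are a description and were not tested. Transcripts are counted once at their 3′ end, so a level does not grow with gene length.

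**Figure D1:**
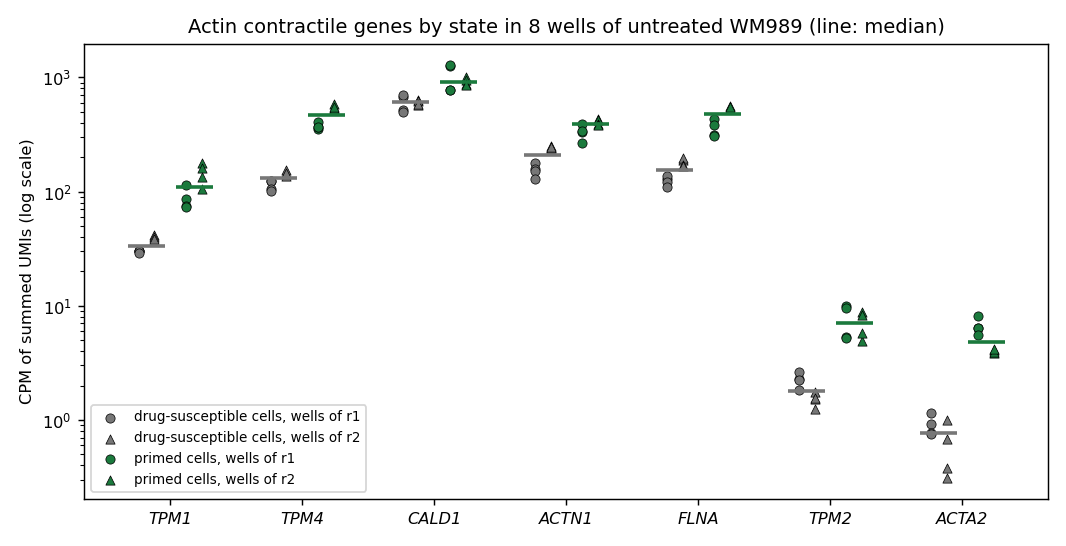
Levels of 7 members in the drug-susceptible (grey) and primed (green) cells of the 8 wells of untreated WM989, as CPM of summed UMIs on a log axis. Circles are wells of r1, triangles wells of r2, and lines the median over wells. The primed points lie above all drug-susceptible points for each gene, and the share of all genes that separate so was not computed.

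TPM4, a tropomyosin that non-muscle cells use in stress fibres, ranged from 355.7 to 581 CPM over the primed cells of the 8 wells, with a median of 469.7, and from 100.2 to 154 CPM over the drug-susceptible cells, with a median of 131. The lowest well of the primed cells was above the highest of the drug-susceptible cells. TPM1, whose products include muscle and stress fibre tropomyosins, ranged from 72.7 to 178 CPM (median 109) against 29.1 to 41.9 CPM (median 33.5). FLNA, which crosslinks filaments and anchors them to the membrane, ranged from 306.3 to 560.2 CPM (median 479.8) against 110.1 to 197 CPM (median 153). CALD1, caldesmon, ranged from 777 to 1291 CPM (median 911) against 495 to 699.6 CPM (median 604), and ACTN1, a crosslinker of bundles and focal adhesions, from 265 to 428 CPM (median 386) against 129.9 to 253 CPM (median 209.6). For each of these genes the wells of the states did not overlap and the primed level was the higher in 8 of 8 wells. The share of all genes whose wells separate in this way was not computed. States were called from these counts and cultures were loaded into pairs of wells, so the 8 wells are not independent replicates.

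Wells and replicates still differed among themselves. The 4 wells of r2 were above the 4 wells of r1 for TPM4 and for FLNA in both states, and for TPM1 and ACTN1 in drug-susceptible cells. TPM4 in primed cells was 369.7 CPM in r1 and 542 CPM in r2, and FLNA 323 and 540.3 CPM. CALD1 in primed cells pooled over wells was 1201 CPM in r1 and 959 CPM in r2, but the r1 wells lay on both sides of the r2 wells, with 777, 779, 1263 and 1291 CPM in r1 and 857 to 1011 CPM in r2. Its ratio was 2.23 within r1 and 1.64 within r2 when the cells of a replicate were pooled. Well by well, the pair of r1 wells with the highest CALD1 in primed cells had ratios of 1.89 and 1.84, and the 6 other wells lay between 1.47 and 1.59, with a median over all wells of 1.55.

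The 5 other members were rare in WM989. TPM2, a tropomyosin of muscle, was at 1.84 CPM in the drug-susceptible state and 8.39 CPM in the primed state, and ACTA2, the actin of smooth muscle and myofibroblasts, at 0.666 and 5.24 CPM. Over wells TPM2 ranged from 4.91 to 9.94 CPM in the primed state and from 1.25 to 2.62 CPM in the drug-susceptible state, and ACTA2 from 3.87 to 8.13 CPM and from 0.308 to 1.16 CPM. Both were higher in primed cells in 8 of 8 wells, without overlap, by median ratios of 3.95 and 7.12. No share of all genes was computed for this separation either. The 1007 ACTA2 UMIs of primed cells lay in 737 of 2843 cells, with at most 7 in a cell, and the 372 of drug-susceptible cells in 338 of 9688 cells, with at most 4. A cell with a UMI need not express the gene.

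TAGLN, an actin-binding protein of smooth muscle, had 84 UMIs in primed and 96 in drug-susceptible cells, and 1 primed cell alone held 17 of the 84. CNN1, calponin of smooth muscle, had 44 UMIs in primed cells (0.229 CPM, 95% counting interval 0.166 to 0.307) and 14 in drug-susceptible cells (0.0251 CPM, 0.0137 to 0.0421). MYL9, the regulatory light chain of smooth muscle myosin, had 2 and 1 UMIs, under the floor of 3 counts. For these 3 genes the wells overlapped. The intervals are exact Poisson intervals and cover counting error only.

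Among the 11 clusters that the authors drew in the first experiment, clusters 2, 8 and 9 are the primed ones. CALD1 was 1233 CPM in cluster 2, 839 CPM in cluster 8 and 890.1 CPM in cluster 9, and TPM1 was 140.3, 94.5 and 127 CPM there. TPM4 and FLNA had another order, with 546 and 518 CPM in cluster 9, 424 and 398 CPM in cluster 2, and 415.5 and 403 CPM in cluster 8. Of the 8 drug-susceptible clusters, cluster 4 had the highest CALD1 (758.5 CPM), FLNA (162.8 CPM), ACTA2 (1.94 CPM) and TAGLN (0.277 CPM, 17 UMIs). Its TPM1 of 30.9 CPM was above that of only 1 other cluster. TPM4 was highest in cluster 1 (135.5 CPM), ACTN1 in cluster 7 (214.6 CPM) and TPM2 in cluster 10 (3.446 CPM).

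In WM983B TPM1 was the abundant member with a ratio above 1.5. It was at 144 CPM in the drug-susceptible and 288 CPM in the primed state, a ratio of 2.01, and 1 of 5 members at 10 CPM or more exceeded 1.5, against 4.33% of 9070 genes. TPM4 was at 162.5 and 203.5 CPM, ACTN1 at 168.5 and 189 CPM and FLNA at 8.13 and 10.8 CPM, so that it reached 10 CPM in primed cells alone. CALD1 was at 507 CPM among drug-susceptible and 489.7 CPM among primed cells, a ratio of 0.966. FLNA was far scarcer in this line than in untreated WM989, where it was at 139 and 429 CPM.

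TPM1 did not follow the state over the 4 clusters of WM983B. It was 308.5 CPM in primed cluster 0 (640 cells) and 152.5 CPM in primed cluster 2 (91 cells), and 119 CPM in drug-susceptible cluster 1 (628 cells) and 295 CPM in drug-susceptible cluster 3 (90 cells). WM983B was 1 library, so none of these differences has a replicate check. TPM2 had 108 and 59 UMIs in primed and drug-susceptible cells, ACTA2 55 and 46, TAGLN 11 and 9, CNN1 6 and 4, and MYL9 0 and 1.

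After TGFB1, 7 of the 8 members that passed the filter on low counts rose over all cells of a library, and 0 fell. Of all 18389 genes tested 16.3% rose and 12.7% fell, and the members' median log2 fold change was 0.64 against 0.01 over all genes. MYL9 and CNN1 did not pass that filter. The test was edgeR's quasi-likelihood test on the summed counts of the 8 libraries with terms for treatment and replicate, and adjusted p-values are Benjamini-Hochberg values over all genes tested. Where libraries of a treatment lie apart from others below, the share of all genes that separate so was not computed.

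TPM1 was 42.3 and 41.7 CPM in the Control libraries r1 and r2, 155 and 147 CPM after TGFB1, 37.2 and 37.3 CPM after PI3Ki, and 36.6 and 41.3 CPM after TGFBRi. Both TGFB1 libraries were far above the 6 others, which lay within a few CPM of each other. The log2 fold change for TGFB1 was 1.83 ± 0.07 (SE; adjusted p = 9.32e-15). TPM4 was 127.5 and 138 CPM in Control, 209 and 214 CPM after TGFB1, 95.6 and 94.2 CPM after PI3Ki, and 144 and 146 CPM after TGFBRi. The TGFB1 libraries were again the highest and the PI3Ki libraries the lowest, with a log2 fold change for TGFB1 of 0.66 ± 0.06 (adjusted p = 3.34e-08).

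FLNA was 154 and 153 CPM in Control, 236 and 244.5 CPM after TGFB1, 139 and 134 CPM after PI3Ki, and 163 and 192 CPM after TGFBRi. CALD1 was 511 and 537 CPM in Control, 725 and 731 CPM after TGFB1, 402 and 416 CPM after PI3Ki, and 476 and 488.5 CPM after TGFBRi. For both genes the TGFB1 libraries lay above all others, and they rose by 0.63 ± 0.07 (adjusted p = 4.38e-07) and 0.46 ± 0.07 (adjusted p = 2.16e-05) on the log2 scale. ACTN1 was 161.5 and 178 CPM in Control and 178 and 210.5 CPM after TGFB1, so these groups overlapped, and 128.5 and 139.9 CPM after PI3Ki and 148 and 176 CPM after TGFBRi. Its log2 fold change for TGFB1 was 0.18 ± 0.07 (adjusted p = 0.0471), and this call was lost without either Control library (0.22 and 0.13), either PI3Ki library (0.17 each) or either TGFB1 library (0.19 and 0.16). With all libraries kept, the ACTN1 call was also lost with no filter on low counts (edgeR, adjusted p = 0.0745), without the replicate block (0.233) and in G1 cells (0.0837).

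Among the members past the filter, 2 rare genes had fitted fold changes above that of TPM1. TAGLN was 0.307 and 0.411 CPM in Control, 1.65 and 1.57 CPM after TGFB1, 0.313 and 0.498 CPM after PI3Ki, and 0.388 and 0.446 CPM after TGFBRi. ACTA2 was 0.358 and 0.461 CPM in Control, 1.71 and 1.44 CPM after TGFB1, 0.484 and 0.457 CPM after PI3Ki, and 0.473 and 0.423 CPM after TGFBRi. The TGFB1 libraries stood apart for both, with log2 fold changes of 2.15 ± 0.22 (adjusted p = 6.02e-08) for TAGLN and 1.92 ± 0.20 (adjusted p = 1.12e-07) for ACTA2. Some of the TAGLN came from few cells. In the experiment 12 cells held at least 5 TAGLN UMIs each, 10 of them in the TGFB1 libraries, and without those 12 cells TAGLN was 0.307 and 0.337 CPM in Control and 1.001 and 1.17 CPM after TGFB1. TPM2 was 0.781 and 0.935 CPM in Control and 0.851 and 1.36 CPM after TGFB1, with a log2 fold change of 0.34 ± 0.18 (adjusted p = 0.176), and it passed only when G1 cells alone were summed (0.79, adjusted p = 0.0373). CNN1 was 0.0128 and 0.0249 CPM in Control (1 and 2 UMIs) and 0.138 and 0.106 CPM after TGFB1 (11 and 9 UMIs). It was called with no filter on low counts, at 2.58 ± 0.88 (edgeR, adjusted p = 0.0214), and in 5 of the 7 fits that left out 1 library and in which it passed the filter, with values of 2.57 to 3.48 in those 5. It was not called without Control r1 (1.73) or TGFB1 r2 (2.32), and DESeq2 gave no adjusted p. MYL9 ranged from 0 to 0.0256 CPM over the 8 libraries.

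The share of cells that the authors called primed differed between treatments as well. Primed cells made up 2.26% and 4.47% of the cells of the Control libraries r1 and r2, 29.1% and 31.3% after TGFB1, 0.647% and 1.21% after PI3Ki, and 2.26% and 4.32% after TGFBRi. A level over all cells sums over both states, so that more primed cells and more transcript per cell cannot be told apart in it. To set the parts side by side, the Control level of each state was weighted by the state shares of UMIs in the TGFB1 library of the same replicate, where primed cells held 25.2% and 26.4% of the UMIs. For TPM4 the weighted value was 214 and 204 CPM, beside 209 and 214 CPM measured after TGFB1. For TPM1 it was 61.9 and 55.7 CPM, beside 155 and 147 CPM measured. CALD1 and FLNA lay between, with weighted values of 610.3 and 645 CPM and of 207 and 199 CPM, each below the measured value of its library, and ACTN1 had weighted values of 170.5 and 199 CPM. No test was run on these weighted values.

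**Figure D2:**
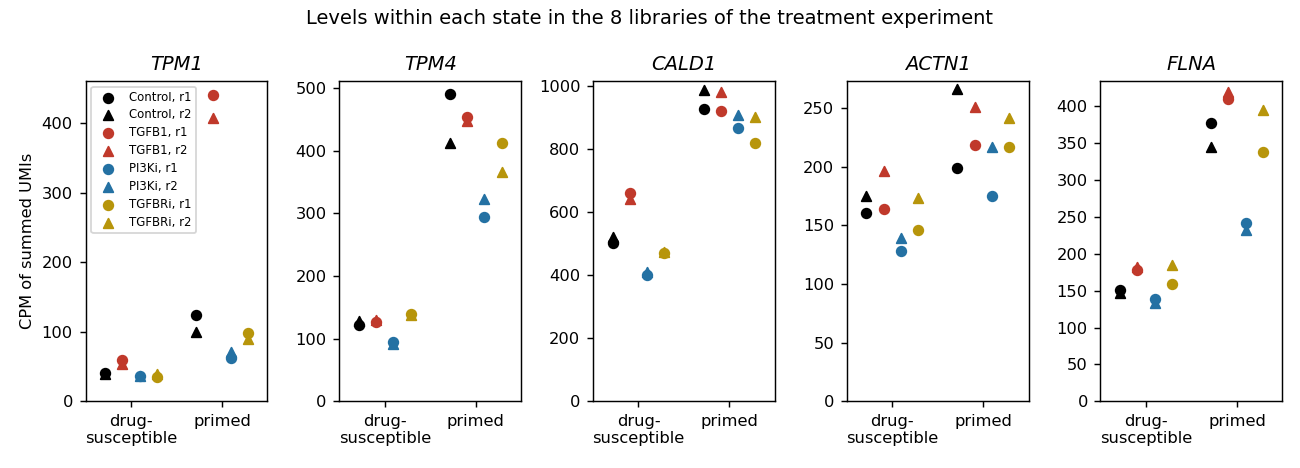
Levels of the 5 abundant members in the drug-susceptible and primed cells of the 8 libraries of the treatment experiment, as CPM of summed UMIs on linear axes from 0. Each point is 1 library (circle r1, triangle r2, colour by treatment); in primed cells TPM1 was 440.1 and 407 CPM after TGFB1 against 63.1 to 124.5 CPM in the 6 other libraries, while TPM4 after TGFB1 lay within the range of Control.

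Inside the primed state TPM1 was the 1 member of 6 that passed for TGFB1. These primed cells were mostly of the authors' cluster 4 after TGFB1 and of cluster 10 in Control, as set out below. Within cluster 10 alone the TPM1 change was -0.23 ± 0.22. TPM1 in primed cells was 124.5 and 99.8 CPM in Control, 440.1 and 407 CPM after TGFB1, 63.1 and 71.6 CPM after PI3Ki, and 98.0 and 90.2 CPM after TGFBRi. Its log2 fold change was 2.01 ± 0.13 (edgeR, adjusted p = 1.44e-15), and 6.21% of 10930 genes rose. TPM4 in primed cells was 491 and 412.5 CPM in Control and 453 and 448 CPM after TGFB1, a log2 fold change of 0.08 ± 0.12, and CALD1 was 929 and 987 CPM against 919.6 and 982.5 CPM, 0.07 ± 0.12. FLNA was 377 and 344 CPM in Control and 409 and 419 CPM after TGFB1, 0.29 ± 0.12 (adjusted p = 0.137). The difference of the TGFB1 effect between primed and drug-susceptible cells was tested as an interaction, with the library as a block and 5.49% of 18502 genes up. It was 1.63 ± 0.11 on the log2 scale for TPM1 (edgeR, adjusted p = 3.26e-51). This test used a spread shared over genes, so its p-value does not reflect the spread of TPM1 itself between libraries.

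Over single primed cells, the middle ranges of TPM1 in the TGFB1 and Control libraries did not overlap. Per 10000 UMIs of a cell, the median TPM1 count of primed cells was 0.783 and 0.735 in Control, with upper quartiles of 1.64 and 1.61. After TGFB1 the median was 3.92 and 3.52, and the lower quartiles of 2.11 and 1.73 lay above the Control upper quartiles. The median depth of these cells was similar, at 12420 and 14540 UMIs in Control and 11100 and 11190 UMIs after TGFB1. For TPM4 the medians were 4.21 and 3.73 in Control and 4.24 and 4.12 after TGFB1.

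The other interaction call for TGFB1 was TPM2, with 2.71 ± 0.90 (edgeR, adjusted p = 0.0296). It rested on 0 and 2 UMIs in the primed cells of the Control libraries against 32 and 68 in those of the TGFB1 libraries. It was lost without Control r1 (2.17), Control r2 (9.885), TGFB1 r1 (3.005) or TGFB1 r2 (2.34). For TPM4 the interaction was 0.15 ± 0.09 and passed only without Control r1 (0.31). States were called by the authors from these counts after treatment, so a test within a state compares the cells that were in it at the end.

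**Figure D3:**
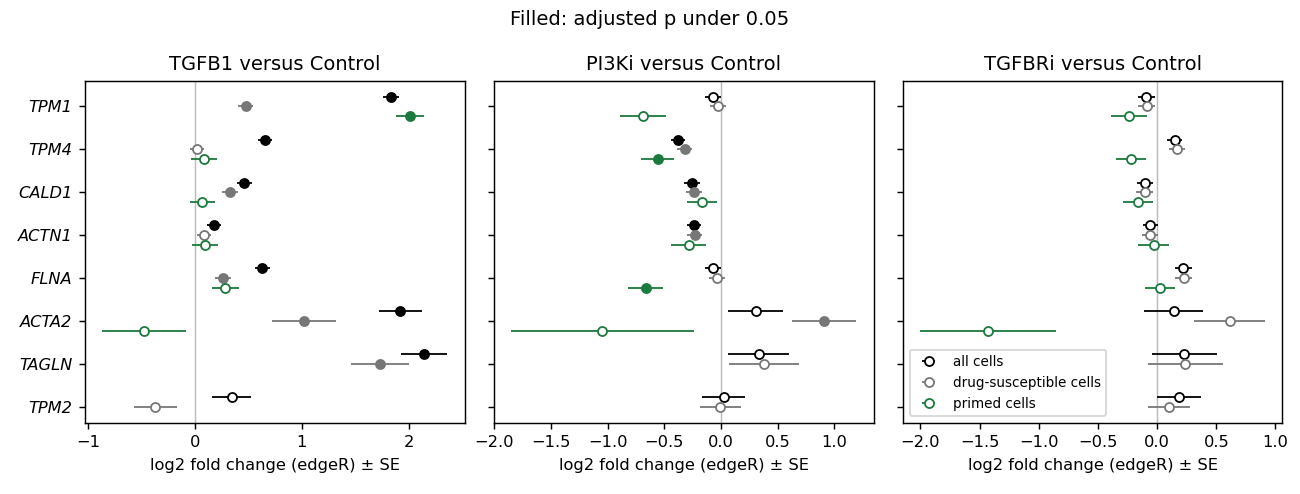
Log2 fold changes against Control (edgeR, ± SE) of the 8 members that passed the filter, for TGFB1, PI3Ki and TGFBRi, over all cells (black), drug-susceptible cells (grey) and primed cells (green). Filled points have an adjusted p under 0.05, the x axes differ between panels, and TAGLN and TPM2 were not tested in primed cells; TPM1 after TGFB1 lies at 1.83, 0.47 and 2.01.

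Which cells carry the primed label also differed in the TGFB1 libraries. Of the primed cells, cluster 4 held 98.2% and 97.1% in the TGFB1 libraries and cluster 10 the rest, whereas in Control cluster 4 held 5.32% and 3.64%, which is 5 and 6 cells. After TGFBRi there were 0 cells in cluster 4. Over all libraries TPM1 was 428.6 CPM in cluster 4 and 93.8 CPM in cluster 10, while TPM4 was 456 and 376 CPM, CALD1 960.6 and 885 CPM, FLNA 418 and 338 CPM and ACTN1 236 and 229.8 CPM. TPM1 was thus the abundant member that differed most between the primed clusters, which were drawn from these counts.

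Inside cluster 10 alone the TGFB1 libraries had 29 and 51 cells and the Control libraries 89 and 159. The log2 fold changes of all 5 members tested there were below 0, beside a median of -0.003 over all 9481 genes. The share of all genes below 0 was not counted. TPM1 was 78.6 and 97.5 CPM after TGFB1 and 112 and 99.6 CPM in Control, with a log2 fold change of -0.23 ± 0.22. TPM4 was 258 and 185 CPM after TGFB1 (92 and 114 UMIs) and 489 and 403 CPM in Control. Its log2 fold change was -1.03 ± 0.19 (edgeR, adjusted p = 0.00127), the 1 member called, with 1.67% of 9481 genes down. FLNA was 216 and 253.5 CPM after TGFB1 and 384 and 336 CPM in Control, -0.61 ± 0.18 (adjusted p = 0.0622).

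**Figure D4:**
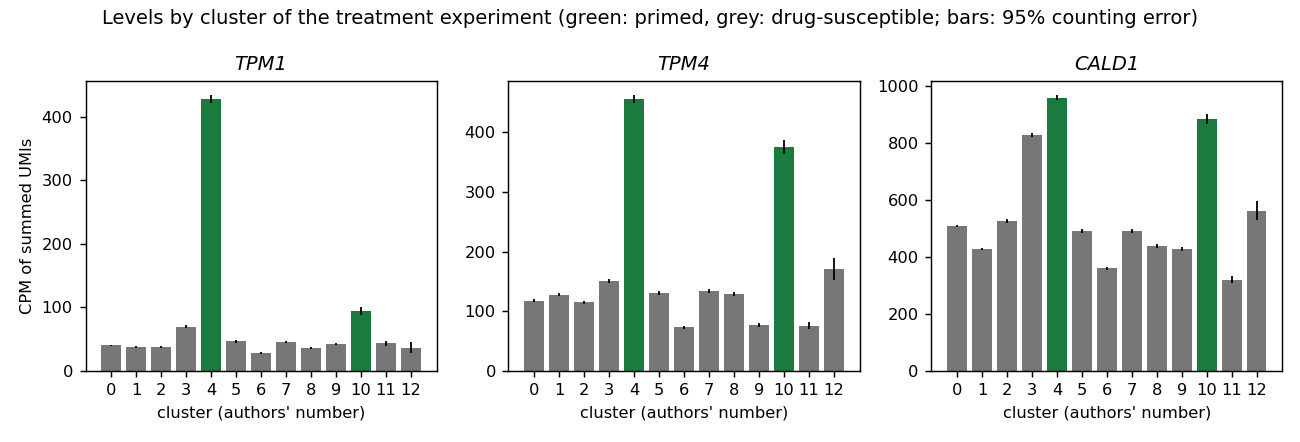
Levels of TPM1, TPM4 and CALD1 in the 13 clusters of the treatment experiment, as CPM summed over all libraries, with green bars for the primed clusters 4 and 10, grey bars for drug-susceptible clusters and lines for the 95% exact Poisson interval (counting error only). TPM1 is 428.6 CPM in cluster 4 and at most 93.8 CPM elsewhere, TPM4 is high in both primed clusters, and CALD1 is also high in drug-susceptible cluster 3.

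In drug-susceptible cells 5 of the 8 members tested rose with TGFB1, with 8.56% of 17914 genes up. TPM1 was 40.9 and 39.9 CPM in Control and 59.1 and 54.1 CPM after TGFB1, and CALD1 was 503 and 522 CPM in Control and 659.6 and 641 CPM after TGFB1. TAGLN was 0.2997 and 0.373 CPM against 1.35 and 0.912 CPM. In each case both TGFB1 libraries exceeded both Control libraries, and the share of all genes that separate so was not computed. For TAGLN 5 cells held 42 UMIs of the TGFB1 library r1, and without cells of at least 5 TAGLN UMIs the values were 0.2997 and 0.296 CPM in Control and 0.652 and 0.816 CPM after TGFB1, which was not tested. The log2 fold changes were 1.73 ± 0.27 for TAGLN (adjusted p = 6.03e-05), 1.02 ± 0.30 for ACTA2 (adjusted p = 0.0214), 0.47 ± 0.07 for TPM1 (adjusted p = 4.77e-05), 0.33 ± 0.07 for CALD1 (adjusted p = 0.00234) and 0.26 ± 0.07 for FLNA (adjusted p = 0.0146). TPM4 was 121 and 129 CPM in Control and 126 and 129.9 CPM after TGFB1, 0.02 ± 0.06. The call of ACTA2 was lost without Control r1 (0.64), TGFB1 r1 (0.94) or TGFB1 r2 (1.09), that of CALD1 without Control r1 (0.31) or TGFB1 r1 (0.26), and that of FLNA without Control r2 (0.20) or TGFB1 r1 (0.23). With all libraries kept, ACTA2 also lost its call with DESeq2 (adjusted p = 0.185), without the replicate block (0.0644) and in G1 cells (0.143), and FLNA without the block (0.0718). ACTA2 had 16 and 24 UMIs in the drug-susceptible cells of the Control libraries.

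A drug-susceptible cluster, cluster 3, was larger in the TGFB1 libraries. It held 2182 and 1619 cells of the TGFB1 libraries and 56 and 59 cells of the Control libraries. Over all libraries cluster 3 had the highest TPM1 (69.3 CPM), CALD1 (829 CPM), FLNA (218 CPM) and TAGLN (2.24 CPM) of the 11 drug-susceptible clusters. The few Control cells of cluster 3 were as high, with TPM1 at 75.3 and 110.3 CPM against 70.4 and 65.8 CPM in its TGFB1 cells, and CALD1 at 781 and 1043 CPM against 797 and 862 CPM. When cluster 3 was left out, 1 of 8 members was called, TPM1 at 0.25 ± 0.07 (edgeR, adjusted p = 0.0227), with 7.74% of 17847 genes up. CALD1 was then 0.03 ± 0.07, FLNA 0.05 ± 0.08, TAGLN 0.36 ± 0.34 and ACTA2 0.19 ± 0.41. Cluster 3 was drawn from these counts after treatment, and most of its cells came from the TGFB1 libraries. Leaving it out selects cells by the measured levels, so the lost calls do not show how drug-susceptible cells as a whole responded. At the other end, cluster 6 had the lowest TPM1 (27.96 CPM), TPM4 (73.3 CPM) and ACTN1 (102 CPM) of the 13 clusters.

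PI3Ki lowered 3 of the 8 members over all cells, with 6.83% of 18389 genes down and 5.83% up. TPM4 fell by 0.38 ± 0.06 on the log2 scale (edgeR, adjusted p = 0.000316), CALD1 fell by 0.26 ± 0.07 (adjusted p = 0.0178) and ACTN1 fell by 0.24 ± 0.07 (adjusted p = 0.0176). For each of the 3 both PI3Ki libraries were below both Control libraries, and the share of all genes that separate so was not computed. TPM1 (-0.07 ± 0.07) and FLNA (-0.07 ± 0.07) did not pass. The TPM4 call was kept in each fit that left out 1 library, between -0.42 and -0.35, whereas those of CALD1 and ACTN1 were lost without either Control library or either PI3Ki library (-0.30 to -0.22 for CALD1, -0.28 to -0.20 for ACTN1). Both were also lost without the replicate block (edgeR, adjusted p = 0.0759 and 0.215).

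In drug-susceptible cells the same 3 genes fell with PI3Ki, with 6.22% of genes down. The log2 fold changes were -0.32 ± 0.06 for TPM4 (edgeR, adjusted p = 0.00169), -0.24 ± 0.07 for CALD1 (adjusted p = 0.0306) and -0.23 ± 0.07 for ACTN1 (adjusted p = 0.0233). ACTA2 was 0.209 and 0.309 CPM in Control (16 and 24 UMIs) and 0.486 and 0.428 CPM after PI3Ki. It rose by 0.91 ± 0.28 (adjusted p = 0.0376), with 5.89% of genes up. ACTA2 also lay above these Control libraries after TGFB1 and, without a call, after TGFBRi (0.61 ± 0.30, unadjusted p = 0.0524 in edgeR). None of the 4 calls for PI3Ki held in all fits that left out 1 library. TPM4 lost it without Control r2 (-0.29) or PI3Ki r2 (-0.32), CALD1 and ACTN1 without either Control or either PI3Ki library (-0.29 to -0.19 and -0.29 to -0.18), and ACTA2 without Control r1 (0.54), either PI3Ki library (0.90 and 0.91) or either TGFB1 library (0.90 each). With all libraries kept, calls were also lost without the replicate block for ACTA2 (edgeR, adjusted p = 0.117), CALD1 (0.107) and ACTN1 (0.23) and in G1 cells for ACTA2 (0.0912), and DESeq2 gave ACTA2 no adjusted p.

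In primed cells, of which the PI3Ki libraries held 25 and 70, TPM4 was 294 and 322.5 CPM (84 and 311 UMIs). FLNA was 242 and 232 CPM there (69 and 224 UMIs). Both genes were lower in both PI3Ki libraries than in the primed cells of any other library. The share of all genes that separate so was not computed. TPM4 fell by 0.56 ± 0.14 (edgeR, adjusted p = 0.0284) and FLNA fell by 0.66 ± 0.15 (adjusted p = 0.0104), which is 2 of 6 members, with 1.32% of 10930 genes down. TPM1 had a log2 fold change of -0.69 ± 0.20 (adjusted p = 0.0681) and passed with DESeq2 (-0.71, adjusted p = 0.0399). FLNA lost its call without Control r1 (-0.55) or PI3Ki r2 (-0.66), and TPM4 without Control r1 (-0.46), PI3Ki r1 (-0.44) or either TGFB1 library (-0.58 each). With all libraries kept, TPM4 also lost its call without the replicate block (-0.58, adjusted p = 0.0675 in edgeR). Within cluster 10 alone the changes were of like size, -0.56 ± 0.18 for TPM4 (adjusted p = 0.183) and -0.70 ± 0.18 for FLNA (adjusted p = 0.0556), and 0 of 5 members were called where 0.781% of genes were down, although TPM1, TPM4 and FLNA had unadjusted p-values of 0.00605, 0.00437 and 0.000622.

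The effect of PI3Ki differed between the states for FLNA and TPM1, with 0.859% of 18502 genes down in the interaction. For FLNA the effect in primed minus that in drug-susceptible cells was -0.62 ± 0.13 (edgeR, adjusted p = 0.000442). For TPM1 it was -0.69 ± 0.19 (adjusted p = 0.0361). The FLNA call was lost without PI3Ki r2 (-0.71), and the TPM1 call without Control r1 (-0.56), PI3Ki r1 (-0.63), PI3Ki r2 (-0.92) or TGFB1 r2 (-0.70).

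With TGFBRi 0 of the 8 members passed over all cells, with 2.53% of all genes called in either direction. FLNA at 0.22 ± 0.07 (unadjusted p = 0.00576, adjusted p = 0.123 by edgeR) and TPM4 at 0.15 ± 0.06 (unadjusted p = 0.03) were the 2 members under an unadjusted 0.05, and DESeq2 also called 0. The FLNA libraries were 163 CPM in r1 and 192 CPM in r2. Leaving out 1 library gave FLNA log2 values from 0.09 to 0.35, the highest without TGFBRi r1. In drug-susceptible cells 0 of 8 members passed with either tool (2.81% of genes called in either direction), 2 of them with an unadjusted p under 0.05. There FLNA lay between 0.10 and 0.35 when 1 library was left out, again highest without TGFBRi r1. In primed cells 0 of 6 members passed with either tool (0.375% of genes called), with 1 under an unadjusted 0.05. The interaction called TPM4, at -0.35 ± 0.09 (edgeR, adjusted p = 0.0454, 0.313% of genes down). This call was lost without Control r1 (-0.19), either TGFB1 library (-0.37 and -0.35) or either TGFBRi library (-0.39 and -0.29).

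Other cytoskeletal genes, taken from lists of the pathway, moved with TGFB1 as well. Among 9 tested genes of other actins, myosins and tropomyosin 5 rose and 2 fell over all cells, where 16.3% of all genes rose and 12.7% fell. MYH9, the heavy chain of non-muscle myosin IIA, rose by 1.01 ± 0.06 on the log2 scale, MYL6, its essential light chain, rose by 0.76 ± 0.07, and MYH10, the heavy chain of myosin IIB, fell by 0.28 ± 0.07. Of 13 tested crosslinkers and adhesion plaque genes 10 rose and 1 fell, with TAGLN2 at 1.31 ± 0.07, CNN2 at 0.85 ± 0.08 and ZYX, zyxin of focal adhesions, at 0.61 ± 0.07. The median log2 fold changes of the 2 lists were 0.19 and 0.37, below the members' 0.64. TAGLN2 and CNN2 are the widely expressed relatives of TAGLN and CNN1, and they were at 145 to 152.5 CPM and 15.2 CPM in Control, far above the smooth muscle forms.

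Of 8 genes more restricted to smooth muscle 4 passed the filter, and 1 rose and 1 fell, beside 16.3% and 12.7% of all genes. All 10 TGF-beta response genes rose, by a median of 4.17 on the log2 scale, with PMEPA1 at 6.08 ± 0.12 and COL1A1 at 5.06 ± 0.12. Of 6 melanocyte identity genes 4 fell and 0 rose, with DCT falling by 0.92, MLANA by 0.79 and MITF by 0.46. All the named genes of these lists had an adjusted p of at most 0.00305 in edgeR. The summed fibroblast markers went from 32.0 and 32.6 CPM in Control to 65.7 and 63.1 CPM after TGFB1, with LUM the highest, and the summed smooth muscle markers from 2.07 and 1.97 CPM to 1.45 and 1.47 CPM. The endothelial markers went from 0.679 and 0.611 CPM to 3.63 and 2.81 CPM, with PECAM1 the highest, and the epithelial markers from 111 CPM in each to 142 and 138 CPM. What part other cell types have in these changes was not tested.

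With PI3Ki 0 genes rose and 2 fell of the actins and myosins, 0 and 4 of the crosslinkers, 0 and 0 of the smooth muscle genes, 1 and 4 of the TGF-beta response genes, and 3 and 1 of the melanocyte genes, where 5.83% of all genes rose and 6.83% fell. With TGFBRi the TGF-beta response genes had 0 up and 4 down of 10, and the actins and myosins, the crosslinkers, the smooth muscle genes and the melanocyte genes 0 in either direction, where 2.53% of all genes were called. The TGF-beta response genes thus had 4 calls down in the libraries where 0 of 8 actin contractile genes were called. PMEPA1, for one, was 4.79 and 6.56 CPM in Control and 0.848 and 1.34 CPM after TGFBRi.

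Between the states of untreated WM989 these lists spread widely, and 51.4% of the 8639 genes at 10 CPM or more in a state were higher in primed cells. Of the actins and myosins at 10 CPM or more in both states 6 of 8 were higher in primed cells. MYH10 had the lowest ratio, 0.257, and MYLK, the kinase that activates myosin, the highest, 6.76, but MYLK reached 10 CPM in primed cells alone. Of the crosslinkers at 10 CPM or more in both states 10 of 12 were higher, up to VCL, vinculin of focal adhesions, at 4.23, and TNS1, at 0.199, reached 10 CPM in drug-susceptible cells alone. SMTN was at 7.38 CPM in drug-susceptible and 12.3 CPM in primed cells, and 0 smooth muscle genes reached 10 CPM in both states. Of the TGF-beta response genes 2 reached 10 CPM in both states and were higher in primed cells, and 6 others, CCN2 and COL1A1 among them, reached it in primed cells alone. Of the melanocyte genes 4 reached it in both states and 0 of them were higher, with ratios over the list from 0.031 for PMEL to 0.146 for MITF.

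The genes whose log2 levels over clusters were most like the mean z-score of the 5 abundant members included other cytoskeletal genes. Over the 13 clusters of the treatment experiment and 6913 genes, the 5 highest Pearson correlations were those of MYL6 (0.987), PLOD2 (0.985), ELK3 (0.984), ITGB1 (0.979) and GPX8 (0.978). Over the 11 clusters of the first experiment and 7021 genes they were VCL (0.994), RBPJ (0.993), MYL6 (0.993), MAP1A (0.991) and MAP4K4 (0.991). MYL6 was on both lists. Against the mean of the other 4, the members themselves lay between 0.814 (ACTN1) and 0.982 (FLNA) in the treatment experiment, with TPM1 at 0.825, and between 0.882 (CALD1) and 0.980 (TPM1) in the first. The clusters were drawn from these counts and share libraries and depth, so the correlations are descriptions.

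Cell cycle phase, as the deposited cell labels give it, differed between the states. In the first experiment 2095 of 2843 primed and 2473 of 9688 drug-susceptible cells were called G1. Within G1 TPM1 was 131.6 CPM in the primed and 31.5 CPM in the drug-susceptible state, TPM4 431 and 112 CPM, and CALD1 1140 and 614.6 CPM. TPM4 and FLNA of primed cells were highest in G2M (530.3 and 494 CPM) and lowest in G1 (431 and 411 CPM), while CALD1 was highest in G1 (1140 CPM) and lowest in G2M (925 CPM). In primed WM983B cells TPM1 was 216 CPM in G1, 268 CPM in G2M and 382 CPM in S, and in drug-susceptible cells it ranged from 108 CPM in G1 to 168 CPM in G2M.

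At the members' main starts no difference in open chromatin from Mix was called. The value used is the fold enrichment over local background that MACS2 gave the strongest peak within 500 bp of the MANE Select start (the reference transcript of a gene) in hg38. Only ACTN1 (chr14, 68979302), CALD1 (chr7, 134779634) and TPM4 (chr19, 16076495) had such a peak in all 12 libraries. FLNA had one in 1 library (4.70) and CNN1 in 2 Mix libraries (5.66 and 3.39), and ACTA2, MYL9, TAGLN, TPM1 and TPM2 in 0. Over 19061 starts of all genes 62.1% had a peak in all 12 libraries and 31.1% in none, and on chromosome X, where FLNA lies, the shares were 45.6% and 48.9% of 825.

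CALD1 was 110, 111 and 101 in the Mix libraries 1 to 3, 124, 100.2 and 90.3 in EGFR/NGFR-high, 101, 102 and 86.6 in EGFR-high, and 113, 104.5 and 108 in NGFR-high. Mix overlapped with each of the other sorts, while the 3 EGFR-high libraries lay below the 3 NGFR-high libraries. TPM4 was 12.99 ± 3.34 (SD, n = 3) in Mix, 16.9 ± 0.99 in EGFR/NGFR-high, 11.2 ± 1.82 in EGFR-high and 16.2 ± 2.42 in NGFR-high, and ACTN1 47.2 ± 9.84, 48.3 ± 5.46, 43.0 ± 4.55 and 46.7 ± 3.04. Against Mix, limma over 11828 starts called 0 of these 3 in any sort (0 with an unadjusted p under 0.05), where 0.516%, 0.254% and 0.888% of starts were called in EGFR/NGFR-high, EGFR-high and NGFR-high. The TPM4 differences were 0.41 ± 0.21, -0.20 ± 0.21 and 0.34 ± 0.21 on the log2 scale. TPM4 in EGFR-high (9.82 to 13.2) lay below EGFR/NGFR-high (15.9 to 17.9) and NGFR-high (14 to 18.8) in all libraries, and Mix (9.41 to 16.02) overlapped with all 3. Differences between sorts other than from Mix were not tested, and the share of all starts whose sorts lie apart in these ways was not computed.

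**Figure D5:**
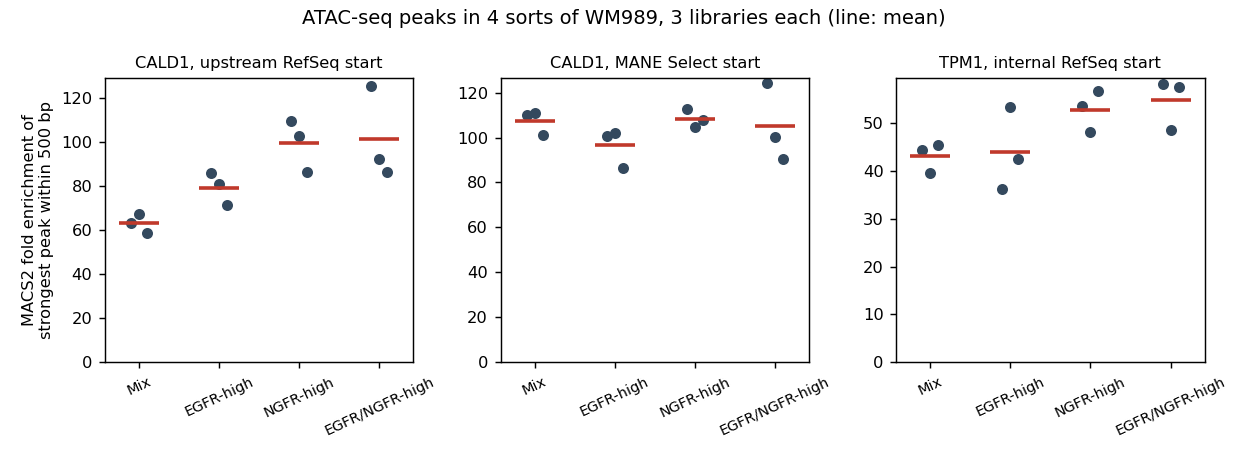
MACS2 fold enrichment of the strongest peak within 500 bp of 3 starts in the 4 sorts of WM989, 3 libraries each, with red lines for the mean and axes from 0. At the upstream CALD1 start the Mix libraries (58.6 to 67.4) lie below all 9 others, while at the MANE Select start of CALD1 Mix overlaps with each other sort and at the internal TPM1 start the Mix libraries overlap with EGFR-high alone. The share of all starts that separate so was not computed.

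Other starts of these genes were examined after the main starts had been seen. All starts of the RefSeq set used for the promoter windows were taken, and 16939 of them were tested. The set lacks TAGLN, MYL9 and the main start of TPM1. A CALD1 start lies at chr7:134711499, upstream of the gene as GENCODE v44 draws it (134744252 to 134970729). The 250 bases before this start, chr7:134711249-134711498 on the plus strand, lie in no GENCODE gene. They are shown because they hold the 1 match to TGANTCA among the members' windows, in capitals, 126 bases before the start. With its middle T this match departs from the AP-1 site.
CALD1: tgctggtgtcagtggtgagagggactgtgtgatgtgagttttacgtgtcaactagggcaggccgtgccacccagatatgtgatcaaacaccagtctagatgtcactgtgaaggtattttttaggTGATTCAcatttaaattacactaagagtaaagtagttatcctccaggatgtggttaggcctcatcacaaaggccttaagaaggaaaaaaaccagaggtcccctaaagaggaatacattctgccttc
Here the fold enrichment was 63.2, 67.4 and 58.6 in the Mix libraries, 125.6, 92.2 and 86.3 in EGFR/NGFR-high, 109.8, 103 and 86.5 in NGFR-high, and 85.8, 80.8 and 71.5 in EGFR-high. The 3 Mix libraries were the lowest of the 12, and the share of all starts where this holds was not computed. The log2 difference from Mix was 0.67 ± 0.13 in EGFR/NGFR-high (limma, adjusted p = 0.0144, with 0.773% of starts up) and 0.66 ± 0.13 in NGFR-high (adjusted p = 0.0164, with 1.12% up), and 0.33 ± 0.13 in EGFR-high (adjusted p = 0.381, with 0.0886% up). Both calls were lost without replicate 1 (0.51 and 0.59) and without replicate 2 (0.78 and 0.68).

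TPM1 had no peak at its main start at 63042747 but one in all 12 libraries at the internal RefSeq start chr15:63048489. Its fold enrichment was 43.2 ± 3.13 (SD, n = 3) in Mix, 44.1 ± 8.67 in EGFR-high, 52.9 ± 4.44 in NGFR-high and 54.9 ± 5.36 in EGFR/NGFR-high. The EGFR/NGFR-high and NGFR-high libraries lay above the Mix libraries, but the log2 differences of 0.34 ± 0.14 (limma, adjusted p = 0.341) and 0.29 ± 0.14 (adjusted p = 0.274) did not pass. No share of all starts was computed for this separation. An ACTA2 start at chr10:88991337 was 15.4 ± 0.63 in Mix and 23.6 ± 5.05 in EGFR/NGFR-high (log2 difference 0.59 ± 0.18, adjusted p = 0.155), but the start of FAS lies 539 bp from it, so the peak cannot be given to one gene. Of the 3 starts with a CArG box, that of ACTN1 had a peak in 12 libraries, in some of them the peak of the main start, and those of TPM4 and FLNA in 1 each. At this ACTN1 start the log2 differences were 0.42 ± 0.26 in EGFR/NGFR-high and 0.47 ± 0.26 in NGFR-high (limma, adjusted p = 0.582 and 0.334). Leaving out 1 replicate moved them between 0.022 and 1.04 and between 0.157 and 0.95, and they passed only without replicate 3. In replicates 1 and 2 both sorts had the value of the main start there. Mix had 23.3 and 26.4, against 40.8 and 42.4 at the main start, so different peaks were compared.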

How the data were processed

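Per the study's methods, the authors made the single-cell UMI count tables with Cell Ranger on hg38 (version not given in the sources used here) and aggregated runs without depth normalization. The authors removed cells with few genes and likely doublets, seen as cells with many genes, and clustered the rest in Seurat. States and cell cycle phases were taken from the deposited cell labels, and how phases were called is not given in the sources used here. No further cells were removed here and no doublet caller was run. ATAC-seq reads were aligned by the authors with Bowtie2 2.3.4.1 and handled with SAMtools 1.1. Their peaks come from MACS2 2.1.1.20160309, run per library. The deposited peak files hold a fold enrichment (a ratio), which was tested, and a -log10 q-value, which set the stricter peak threshold of one alternative.

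The members and gene lists were chosen with earlier results of these data known. Raw counts were summed per library, and per library and state, and tested with edgeR 4.0.16 (R 4.3.3; TMM scaling, filter on low counts, treatment and replicate terms). Libraries needed at least 20 primed cells to enter the fit on primed cells. The effect in primed minus that in drug-susceptible cells was tested over 16 sums with the library as a block. The log2 fold enrichment was tested with limma 3.58.1. A call is an adjusted p under 0.05. The edgeR and limma steps were tested on simulated data. The replicate numbers pair the treatment libraries, since each replicate was 1 well of cells before the split, and the r2 minus r1 deviations of the 6 pairs of treatments correlated with r between 0.256 and 0.365 over 18389 genes. Each group holds 1 cell line, so p-values measure the spread between these libraries. In the interaction test that spread was shared over genes, so a gene's own spread between libraries did not enter its p-value.

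All members are named. One gene list and a gene that this rule names are not reported here. Other genes named are, of each list, up to 3 with the largest change past the threshold for TGFB1 in all cells at 10 CPM or more, those at each end of the state ratio in the first experiment, and the 5 genes most like the members' mean over clusters in each of 2 experiments. Alternatives were DESeq2 1.42.0, no filter, no replicate block, library size alone, G1 cells, leaving out each library, ratios within a replicate or well or with a TMM factor, and for peaks the window, the threshold, division by the library median and the replicate block. Levels and figures were computed in Python 3.11.15 (pandas 2.3.3, numpy 2.4.6, matplotlib 3.10.9 and scipy 1.17.1).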

Additional observations from a re-analysis of the deposited data

Results flagged for a closer look

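The interaction test in edgeR called a difference in effect between primed and drug-susceptible cells for 5 pairs of member and treatment. Its p-values rest on a spread shared over genes. With TGFB1 the log2 difference was 1.63 for TPM1 and 2.71 for TPM2, with PI3Ki -0.69 for TPM1 and -0.62 for FLNA, and with TGFBRi -0.35 for TPM4. For TGFB1 the primed cells compared were mostly of cluster 4 after treatment and of cluster 10 in Control. Within cluster 10 alone the TPM1 change was -0.23 ± 0.22. The TPM1 difference for TGFB1 passed in 8 of 8 fits that left out 1 library, between 1.51 and 1.76, and that of FLNA for PI3Ki in 7 of 8. The others passed in 4 (TPM2, TPM1 for PI3Ki) or 3 (TPM4) of 8.

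CALD1 was higher in the primed cells of all 8 wells of untreated WM989, whereas in the 1 library of WM983B its log2 ratio was -0.05. The difference between the lines was not tested.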

How the results depend on the processing

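Among the values for single members, 401 kept their direction and side of the threshold or moved by less than the spread under the alternatives that kept all libraries, and 709 did so in fits that left out a library, where 60 were no longer past the threshold, 5 newly passed it and 42 changed sign. Of the others with all libraries kept, 21 were no longer past the threshold, 2 newly passed it, 18 untested ones moved and 15 changed sign. The causes were not tested. The fit without the replicate block left fewer genes called. With TGFB1 2990 genes were higher and 2334 lower in all cells with the block and 2161 and 1438 without it, with PI3Ki 1072 and 1256 against 261 and 388, and with TGFBRi 200 and 266 against 11 and 29. In drug-susceptible cells the counts were 1533 and 1132 against 775 and 414 (TGFB1), 1056 and 1114 against 249 and 321 (PI3Ki), and 218 and 285 against 15 and 32 (TGFBRi). In primed cells they were 51 and 144 against 21 and 66 (PI3Ki) and 8 and 33 against 2 and 7 (TGFBRi), with a like count for TGFB1. Without the block the members called fell to 1 for PI3Ki in all cells, 3 for TGFB1 and 1 for PI3Ki in drug-susceptible cells, and 1 for PI3Ki in primed cells, and the log2 change of TPM2 for PI3Ki in drug-susceptible cells was 0.0046. DESeq2 called fewer genes than edgeR in each comparison with Control. In all cells it called 1983 higher and 1784 lower (TGFB1), 680 and 883 (PI3Ki) and 124 and 205 (TGFBRi). In drug-susceptible cells it called 981 and 769, 640 and 783, and 125 and 192 in the same order, and in primed cells 268 and 338, 30 and 125, and 3 and 14, where edgeR called 679 and 775 for TGFB1. With no filter on low counts TGFBRi had 349 higher and 399 lower genes in all cells, and TGFB1 910 and 612 in primed cells. Scaling by library size alone moved the median of all genes for PI3Ki to -0.10 in all cells and -0.0945 in drug-susceptible cells, called 560 higher and 2963 lower in the former and 583 and 2825 in the latter, and gave TPM2 a log2 change of -0.086 in all cells. In G1 cells TGFBRi had 51 higher and 97 lower genes over all states and 86 and 124 in drug-susceptible cells. There the log2 change of ACTA2 for TGFBRi was -0.27 over all states and -0.16 in drug-susceptible cells, that of TPM2 for PI3Ki was 0.19 in drug-susceptible cells, and 2 members of WM983B lay above a ratio of 1.5.

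Further alternatives were chosen after seeing the data. Those outside cluster 3 and in cluster 10 select cells by clusters drawn from these counts after treatment. Outside cluster 3 only 1 member, TPM1, was called for TGFB1 in drug-susceptible cells, and TPM4 was at -0.12. In cluster 10 alone 99 genes were higher and 158 lower for TGFB1, 30 and 74 for PI3Ki and 0 and 5 for TGFBRi (511 genes at an unadjusted p under 0.05). There edgeR called 0 members for PI3Ki, and the log2 changes for TGFB1 were -0.45 for CALD1, -0.33 for ACTN1, -0.23 for TPM1, -1.03 for TPM4 and -0.61 for FLNA. At the starts of the RefSeq set 1 member was called in EGFR/NGFR-high and 1 in NGFR-high, also with the replicate block and after division by the library median, and 2 in each without replicate 3. The numbers of the ATAC libraries did not pair them, since same-numbered libraries correlated between -0.05 and 0.13. Division by the library median gave ACTN1 a log2 difference of -0.029 in EGFR/NGFR-high and -0.16 in NGFR-high, CALD1 -0.15 in NGFR-high, and the CALD1 start at 134891458 -0.00027 in EGFR/NGFR-high.

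Leaving out each library in turn gave 1 to 3 members called for PI3Ki and 0 to 1 for TGFBRi in all cells. In drug-susceptible cells it gave 2 to 5 for TGFB1, 0 to 4 for PI3Ki and 0 to 1 for TGFBRi, and in primed cells 0 to 2 for PI3Ki. For the difference between states it gave 1 to 2 (TGFB1), 0 to 2 (PI3Ki) and 0 to 1 (TGFBRi), and for accessibility 0 to 2 in EGFR/NGFR-high and in NGFR-high. Where an arm kept 1 library, that library was assumed to vary like the others. Some log2 values changed sign over these fits. In all cells these were, with PI3Ki, TPM2 (-0.075 to 0.15) and TAGLN (-0.11 to 0.56), and with TGFBRi, ACTA2 (-0.12 to 0.42) and TPM1 (-0.20 to 0.014). In drug-susceptible cells they were TPM4 (-0.013 to 0.057) with TGFB1, TPM1 (-0.20 to 0.019) with TGFBRi, and, with PI3Ki, TPM2 (-0.038 to 0.036), TAGLN (-0.17 to 0.70), TPM1 (-0.063 to 0.0047) and FLNA (-0.10 to 0.022). In primed cells they were TPM4 (-0.050 to 0.22) with TGFB1, and ACTN1 (-0.093 to 0.062) and FLNA (-0.17 to 0.19) with TGFBRi. For the difference between states they were TAGLN (-0.82 to 0.31) and ACTN1 (-0.044 to 0.29) with TGFB1, and CALD1 (-0.032 to 0.11), ACTN1 (-0.28 to 0.11) and CNN1 (-0.99 to 1.03, with 0 UMIs in the primed cells of both Control and PI3Ki) with PI3Ki. With TGFBRi they were CALD1 (-0.12 to 0.072), TAGLN (-0.64 to 0.56), ACTN1 (-0.073 to 0.21) and TPM1 (-0.30 to 0.0037). For accessibility in EGFR/NGFR-high they were ACTN1 (-0.13 to 0.30), CALD1 (-0.15 to 0.018) and its start at 134891458 (-0.0012 to 0.16). In EGFR-high they were ACTN1 (-0.28 to 0.089), TPM4 (-0.33 to 0.013) and the TPM1 start at 63048489 (-0.19 to 0.17), and in NGFR-high ACTN1 (-0.15 to 0.21), CALD1 (-0.021 to 0.065) and its start at 134891458 (-0.24 to 0.034). MYL9, with 2 and 1 UMIs in the states of untreated WM989, allowed no comparison.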
